A study of Mus musculus with 2 samples.

Results

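The genes studied here make, sense and break down prostaglandin E2, a lipid signal of epithelium. The 10 genes were a phospholipase (Pla2g4a), both cyclooxygenases (Ptgs1, Ptgs2), the prostaglandin E synthases (Ptges, Ptges2, Ptges3), a pair of receptors (Ptger2, Ptger4) and a pair of breakdown enzymes (Hpgd, Ptgr1). They were chosen by name, out of 14860 genes measured by a probe set (the group of probes that reports one transcript) carrying exactly 1 gene symbol. Of the 10 genes, 9 had such a probe set, each a single one, and Ptgs1 was not analysed here because no probe set was listed for it.

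Expression was measured on 2 exon arrays. One array held RNA of Gprc5a knockout (Gprc5a-/-) tracheal epithelial cells and the other RNA of wild-type (Gprc5a+/+) cells. Gprc5a is an orphan G protein-coupled receptor first known as a retinoic acid-induced gene. Both cultures came from mice aged 3 weeks on a C57 BL/6 × 129sv background, and received no treatment. They were in exponential growth in a serum-free keratinocyte medium that contained EGF at 5 ng/ml and pituitary extract of bovine origin at 50 μg/ml. The labels do not say how many mice or cultures stand behind a sample, nor which part of Gprc5a the knockout allele lacks. With 1 sample per genotype there is no error and no test, and every difference below describes these 2 samples only. Levels are on the log2 scale. Differences are given as knockout minus wild type, and a fold is 2 raised to the size of such a difference.

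Prostaglandin E2 is made in steps. A phospholipase frees arachidonic acid from membrane lipid, a cyclooxygenase turns it into the unstable prostaglandin H2, and a terminal synthase turns that into prostaglandin E2. The product leaves the cell and acts on G protein-coupled receptors, among which EP2 and EP4 raise cyclic AMP, and it is inactivated by oxidation followed by reduction. Ptgs2 and Ptges are the inducible cyclooxygenase and the inducible synthase, and in inflamed tissue they are commonly induced together.

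In the knockout sample the inducible synthase gene was far higher and the inducible cyclooxygenase gene was lower, while the other 7 measured genes differed by less than 2-fold. Ptges was 12.3-fold higher and Ptgs2 was 4.23-fold lower. A difference of 2-fold or more was counted when the higher of a gene's values exceeded 6.76, the median over both arrays of every probe set that names a gene. Of the 7943 genes passing this level filter, 4.62% were higher in the knockout sample by 2-fold or more and 2.97% were lower by as much. Of the 9 measured genes 7 passed it, with 1 counted as higher and 1 as lower. The median difference of the 9 genes was 0.09, against -0.03 over all 14860 genes, and it was -0.0039 when the arrays were quantile-normalized. Of the 9 differences 7 were positive and 2 negative, and 4 of the 9 lay within 0.11 of 0.

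**Figure D1:**
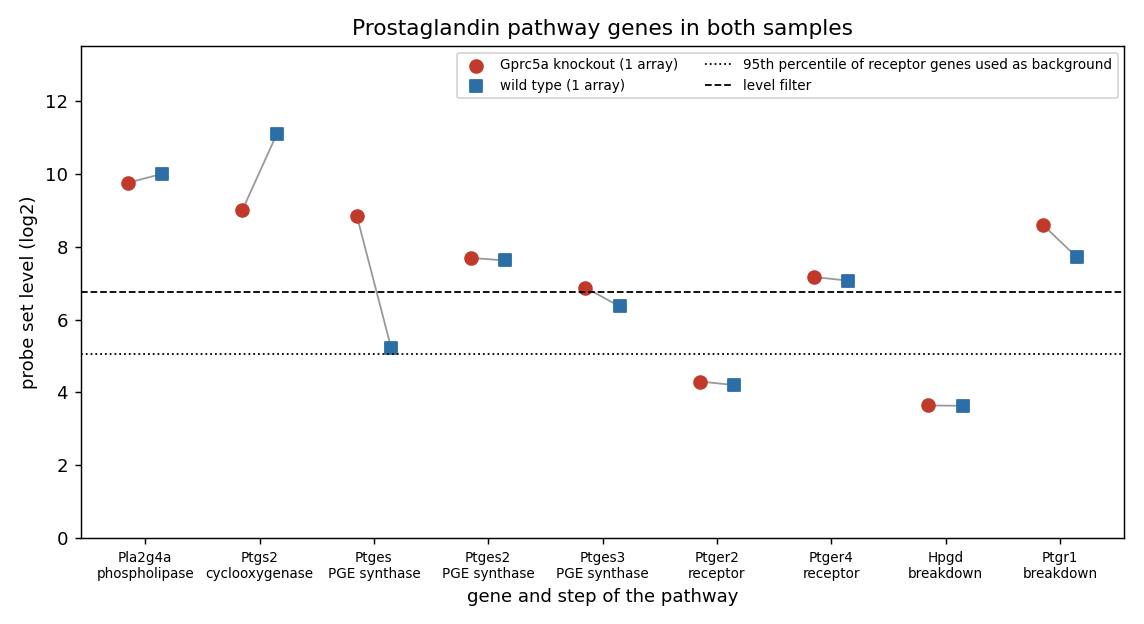
Log2 level of each measured gene in the knockout sample (circles) and the wild-type sample (squares), 1 array each, in the order of the pathway; levels are to be compared within a gene and not between genes. The circle of Ptges, at 8.85, lies far above its square, at 5.23, and the circle of Ptgs2, at 9.00, lies below its square, at 11.08. Ptger2 and Hpgd lie under the dotted line at 5.05, the 95th percentile of olfactory and vomeronasal receptor genes.

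The targeted gene served as a check of the labels. Gprc5a had a level of 4.05 in the knockout sample, against 9.49 in the wild-type sample. The knockout value was below 5.05, the 95th percentile of 800 olfactory and vomeronasal receptor genes, which stood for genes with no expression in these cells. Of 12 markers of epithelium and airway basal cells 11 passed the level filter, and Ngfr, a basal cell receptor, did not, at 5.66 in the knockout and 5.98 in the wild type. Those above it included Krt5, a basal keratin, at 12.62 in the knockout and 12.71 in the wild type, and Trp63, the p63 transcription factor, at 10.76 in the knockout and 10.95 in the wild type. All 11 were within 2-fold, with differences from -0.41 for Epcam to 0.69 for Krt15. Krt15 was at 7.60 in the knockout and 6.91 in the wild type.

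The sequences in front of Ptgs2 and Ptges are shown because the results turn on these genes. They are the 250 bases before the start annotated by RefSeq on build GRCm38.p6, written on the gene's own strand. Capitals mark the GC box GGGCGG, found on either strand in 32.7% of 32851 mouse promoters of this length. The Ptgs2 stretch lies at chr1:150099781-150100030 on the plus strand, and the Ptges stretch at chr2:30903298-30903547 on the minus strand.
Ptgs2: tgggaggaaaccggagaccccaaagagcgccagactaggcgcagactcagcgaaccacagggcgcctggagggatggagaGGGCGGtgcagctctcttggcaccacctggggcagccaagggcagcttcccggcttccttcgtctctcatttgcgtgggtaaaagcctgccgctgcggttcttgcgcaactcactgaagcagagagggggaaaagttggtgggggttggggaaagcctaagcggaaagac
Ptges: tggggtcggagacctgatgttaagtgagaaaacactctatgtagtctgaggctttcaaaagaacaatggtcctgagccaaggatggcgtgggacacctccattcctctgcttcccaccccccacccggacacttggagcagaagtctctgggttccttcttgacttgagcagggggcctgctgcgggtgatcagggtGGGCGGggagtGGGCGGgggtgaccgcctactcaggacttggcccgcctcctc
The Ptgs2 stretch held 1 GC box and the Ptges stretch held 2, spaced closely and ending 48 and 37 bases before the start. GC boxes were not particular to these genes, since 6 of the 10 genes had at least 1 on either strand. Ptger4, with a difference of 0.10, had 4 and Ptges3, with a difference of 0.52, had 3. In the mouse Ptges promoter, tandem GC boxes are known as the site through which the transcription factor Egr1 acts. The Egr1 consensus GCGNGGGCG, added to the search later, had no match on either strand in the Ptges stretch and occurs in 4.7% of mouse promoters of this length, which says only that these letters are not in that window. Egr1 itself was at 7.72 in the knockout sample, against 6.86 in the wild-type sample, a difference of 0.86, and its part in the level of Ptges was not tested.

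The cyclic AMP response element (CRE) of mouse Ptgs2 overlaps an E-box, and in the RefSeq annotation this site falls just after the annotated start, at bases 14 to 22. The site is shown with 8 bases on either side, from chr1:150100036-150100060 of GRCm38.p6 on the plus strand, with CGTCACGTG in capitals.
Ptgs2 CRE and E-box: caccactaCGTCACGTGgagtccgc
These 9 letters occur on either strand in 0.451% of mouse promoter windows of 300 bases that include the first 50 bases after the start. The full CRE, TGACGTCA, had no match on either strand in the 250 bases before the Ptgs2 start, against 1.55% of all promoters with one, and the same held for the TATA box, TATAAA, against 12.4%. This says only that these letters are not in that window.

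The first step differed little. Pla2g4a, the calcium-dependent cytosolic phospholipase A2 that releases arachidonic acid, had a level of 9.75 in the knockout sample and 9.99 in the wild-type sample. The knockout value was the lower one by a difference of -0.24 (1.18-fold), and 3192 of the 14860 genes had a more negative difference. Other phospholipase A2 genes were mostly dim. Of 17 measured, 4 passed the level filter and none of them reached 2-fold. Among these 4 the largest difference belonged to Pla2g6, a calcium-independent phospholipase, at 7.54 in the knockout and 6.95 in the wild type. Pla2g12a, a secreted one, was at 7.57 in the knockout and 8.10 in the wild type. Pla2g15, the lysosomal one, differed by 0.17, and Pnpla8, a mitochondrial and peroxisomal calcium-independent one, by 0.20. Genes of proteins that modulate the cytosolic phospholipase were bright and close together. All 8 measured ones passed the filter and none reached 2-fold. Anxa1, annexin A1, known as an inhibitor of phospholipase A2, was at 12.04 in the knockout and 11.84 in the wild type. Anxa5 differed by 0.47, and the kinase genes Mknk1 and Mknk2 by -0.50 and 0.43.

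The list of genes for arachidonic acid supply and for the return of fatty acids to membrane lipid held a large single difference. Acsl1, Acsl3, Lpcat2 and Mboat7 of this list were not measured. Mboat2, an acyltransferase that puts fatty acids back on lysophospholipids, was at 4.20 in the knockout sample, against 7.55 in the wild-type sample. The knockout value was below the background percentile, and raised to it gave a difference of -2.49 in place of -3.35. Dagla, diacylglycerol lipase alpha, which makes the endocannabinoid 2-arachidonoylglycerol, was 2.58-fold higher, at 7.92 in the knockout and 6.55 in the wild type. It passed the level filter by its knockout value alone. The other 14 genes that passed the filter, of 22 measured in this list, were within 2-fold. Lpcat3, which places arachidonic acid in phospholipids, differed by 0.65, and Plcb3, a phospholipase C, by 0.72.

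At the cyclooxygenase step Ptgs2 was clearly expressed in both samples. Its level was 9.00 in the knockout sample, against 11.08 in the wild-type sample. The difference was -2.08 on the log2 scale, and 88 of the 14860 genes had a more negative one. Both values lay above the level filter, so neither the filter nor the background entered this difference. The constitutive enzyme gene Ptgs1 was not analysed here, so the summed cyclooxygenase message is not known.

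Genes known to control Ptgs2 transcription or the stability of its mRNA were mostly similar in the samples. Of 29 measured, 24 passed the filter, and among these 1 was at least 2-fold higher and none at least 2-fold lower. The exception was Il1a, the alarmin interleukin-1 alpha and a known inducer of Ptgs2, which was 5.55-fold higher in the knockout sample over a wild-type level of 7.53. Its difference was 2.47, and its part in the level of Ptgs2 was not tested. Zfp36l1, which promotes decay of AU-rich mRNAs, had a level of 8.27 in the knockout and 9.25 in the wild type, close to the 2-fold limit. Its relative Zfp36l2 had a difference of the other sign, 0.64. Cebpb and Rela, transcription factors that act on Ptgs2, differed by 0.47 and 0.25, and Elavl1, the stabilising factor HuR, by 0.01. The median difference of the list was 0.14. Of its 35 genes 6 were not measured, among them Cebpd, Nfkb1 and Relb. Nfatc2 was under the filter in both samples, at 6.13 in the knockout and 5.09 in the wild type, a 2.05-fold difference.

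At the synthase step the 3 genes behaved differently. Ptges, microsomal prostaglandin E synthase-1, had a level of 8.85 in the knockout sample, against 5.23 in the wild-type sample. The difference was 3.62, and 31 of the 14860 genes had a larger positive one. The wild-type value was just above the background percentile of 5.05, so the gene was dim in wild-type cells and the size of the fold rests on a low value. It passed the level filter by its knockout value alone, and the mean of its values also exceeded the filter. Ptges2, encoding a membrane-associated enzyme known as microsomal prostaglandin E synthase-2, was at 7.69 in the knockout and 7.62 in the wild type, a difference of 0.07 that turned to -0.02 under quantile normalization. Ptges3, the cochaperone p23 that also acts as the cytosolic synthase, was at 6.88 in the knockout and 6.36 in the wild type, a 1.43-fold difference, with the wild-type value below the filter. The large difference was therefore seen for the inducible synthase and not for the other synthase genes.

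**Figure D2:**
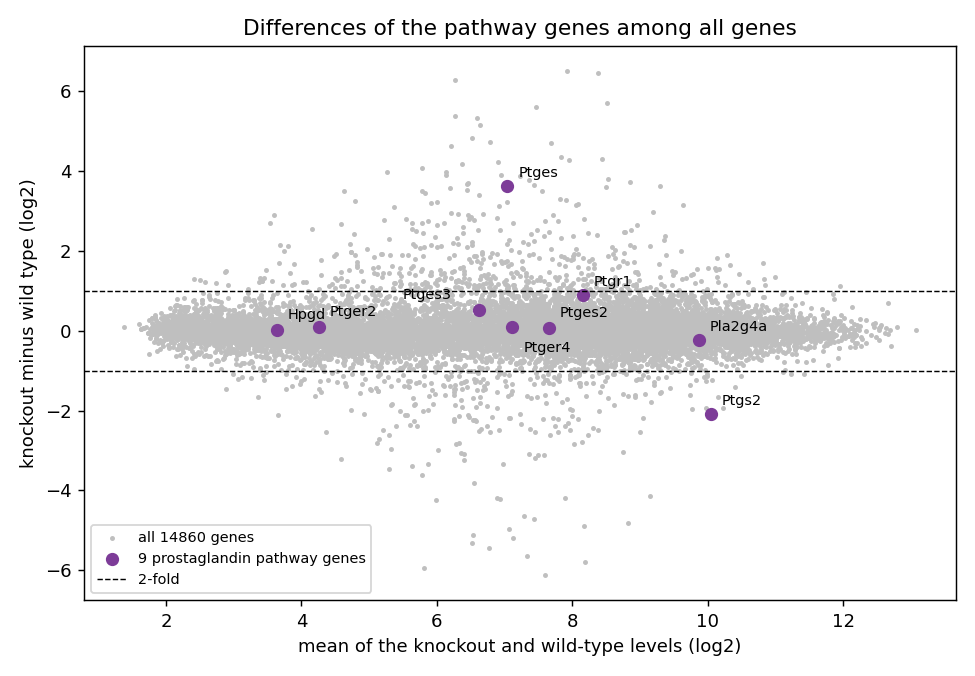
Difference between knockout and wild type on the log2 scale against the mean log2 level of both samples, for all 14860 genes (grey) and the 9 pathway genes (purple), with dashed lines at 2-fold. Ptges, at 3.62, and Ptgs2, at -2.08, lie outside the dashed lines, and the other 7 lie between them, with Ptgr1 nearest to the upper line at 0.90.

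Synthases of the other prostanoids were mostly dim. Of 11 measured genes of that list 4 passed the filter. Akr1b3 and Akr1b7 of the list were not measured. Hpgds, the haematopoietic prostaglandin D synthase, was at 3.41 in the knockout and 3.36 in the wild type, and Tbxas1, thromboxane synthase, at 3.72 in the knockout and 3.84 in the wild type. All of these values lay under the background percentile. Ptgds and Ptgis, the synthases of prostaglandin D2 in brain and of prostacyclin, were below the level filter in both samples. The 4 genes above it were reductases, and all had positive differences. Akr1b8, an aldo-keto reductase, was 2.93-fold higher, at 9.35 in the knockout and 7.80 in the wild type. The carbonyl reductase genes Cbr3, Cbr2 and Cbr1 were within 2-fold, with differences of 0.90, 0.52 and 0.46. Akr1c18 was under the filter in both samples, at 5.60 in the knockout and 4.50 in the wild type. Its difference was 2.13-fold, with the wild-type value below the background percentile.

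At the receptor step no difference stood out. Ptger4, the EP4 receptor, was at 7.16 in the knockout sample and 7.06 in the wild-type sample, a difference of 0.10 that turned to -0.02 under quantile normalization. Ptger2, the EP2 receptor, was at 4.30 in the knockout and 4.20 in the wild type, below the background percentile in both samples, where a change could not be read. Ptger1, the EP1 receptor that signals through calcium, was below the filter at 6.40 in the knockout and 6.52 in the wild type, and Ptger3, the EP3 receptor that lowers cyclic AMP, was below background at 3.74 in the knockout and 4.12 in the wild type. In the list of other prostanoid receptors and nuclear receptors, 2 of 10 genes passed the filter and both were within 2-fold. These were Ptgfrn, an inhibitor of the prostaglandin F2 alpha receptor, with a difference of 0.12, and Ppard, a nuclear receptor for fatty acids, with 0.45. Pparg, the nuclear receptor activated by prostaglandin J2 derivatives, was named after its values were seen. It was at 6.52 in the knockout and 5.02 in the wild type, under the filter in both.

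Downstream of EP2 and EP4, no measured gene of the chosen lists of cyclic AMP signalling and its targets reached 2-fold. Adcy1, Rapgef4, Fosb and Areg of these lists were not measured. Of 27 measured genes of the stimulatory G protein, adenylyl cyclases, protein kinase A and beta-arrestins, 16 passed the filter and all of these were within 2-fold. The largest differences were 0.92 for Rapgef3, the cyclic AMP sensor Epac1, -0.90 for Prkar2b, a regulatory subunit of protein kinase A, -0.81 for Adcy7, an adenylyl cyclase, and 0.77 for Creb1, the transcription factor that binds the CRE. Of 14 measured target genes of cyclic AMP and CREB, 7 passed the filter, also all within 2-fold. Nr4a2, an orphan nuclear receptor, had a difference of -0.59 and Dusp1, a phosphatase of MAP kinases, -0.46. The kinase gene Sik1 had 0.41 and Fos 0.26, so the list held both signs.

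At the breakdown step the oxidising enzyme Hpgd was not detected above background. The reducing enzyme Ptgr1 was higher in the knockout sample, by less than 2-fold. Hpgd, the 15-hydroxyprostaglandin dehydrogenase that starts inactivation, was at 3.64 in the knockout and 3.63 in the wild type, both below the background percentile. Ptgr1, which reduces 15-keto prostaglandins and also oxidises leukotriene B4, was at 8.60 in the knockout and 7.70 in the wild type. Its difference of 0.90 (1.86-fold) was just inside the 2-fold limit, and 609 of the 14860 genes had a larger positive one. Among genes of transport and other breakdown, 6 of 9 measured passed the filter and 1 was at least 2-fold higher. That gene was Ephx1, microsomal epoxide hydrolase, at 11.48 in the knockout and 10.17 in the wild type. Ptgr2 and Zadh2 also passed the filter, with differences of 0.33 and 0.35. Slco3a1 and Abcc1, transporters that can carry prostaglandins or leukotrienes, differed by 0.77 and 0.74, while Slco4a1, another transporter of that family, was at 6.39 in the knockout and 7.38 in the wild type. Slco2a1, the main prostaglandin uptake carrier, was below the background percentile in both samples. Abcc4, another transporter of this list, was not measured.

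Lipoxygenases compete with cyclooxygenases for arachidonic acid. Alox12, the platelet-type 12-lipoxygenase, was 4.76-fold higher, at 8.56 in the knockout sample and 6.31 in the wild-type sample, and passed the filter by its knockout value alone. Alox5, the enzyme that starts leukotriene synthesis, was at 4.78 in the knockout and 4.79 in the wild type, and Alox15 at 4.53 in the knockout and 4.64 in the wild type, both genes below background. Lta4h, which makes leukotriene B4, was bright and differed by 0.20. Of 18 measured genes in this list, which includes Hpgd and Ptgr1, 3 passed the filter, and 11 were below the background percentile in both samples.

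**Figure D3:**
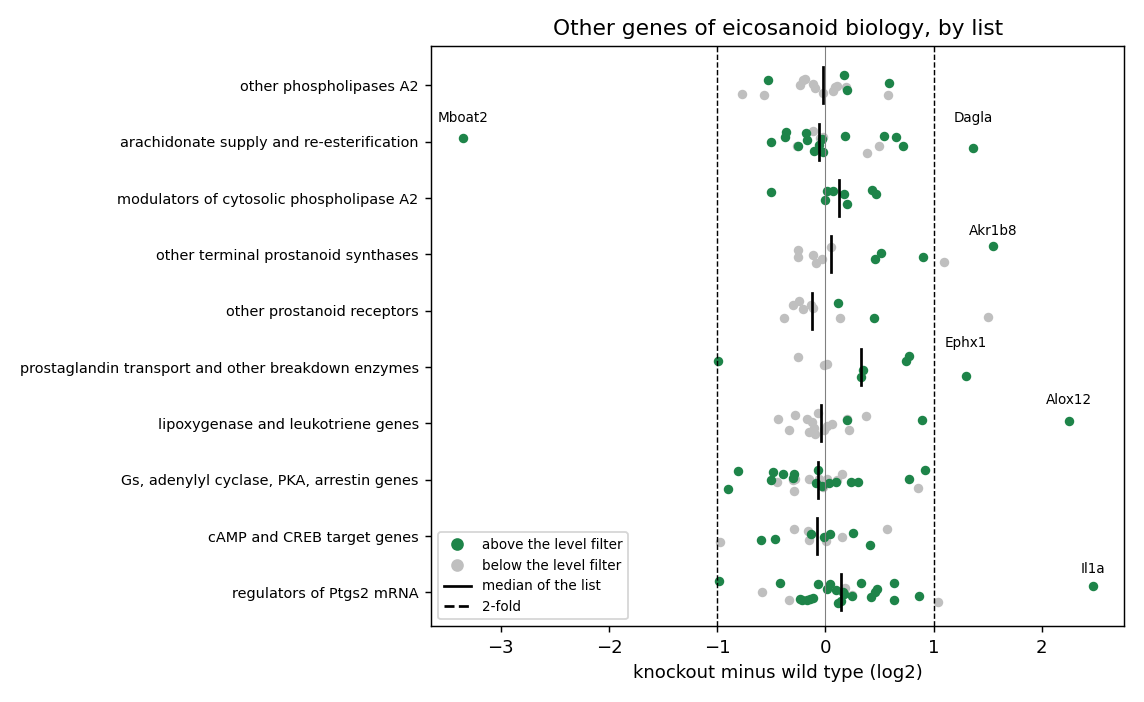
Difference between knockout and wild type on the log2 scale for every measured gene of 10 further lists, 1 point per gene with random vertical spread, green above and grey below the level filter. Black ticks mark list medians, which run from -0.12 to 0.33, and the labelled genes are the 6 above the filter that reached 2-fold.

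Over the 10 lists together, 161 genes other than the prostaglandin genes themselves were measured and 89 passed the filter. Of these 5 (5.62%) were at least 2-fold higher and 1 (1.12%) at least 2-fold lower in the knockout sample. Over all genes above the filter these shares were 4.62% and 2.97%. Their median difference was -0.01.

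Pla2g4a and Ptgs2 are direct neighbours on chromosome 1 among the measured genes, in the gene order of GRCm38.p6. Across the 5 measured genes on either side of the pair, differences ran from -0.56 to 0.57 and none reached 2-fold, though only 3 of the 10 passed the level filter. The neighbour next to Ptgs2, Pdc, was below background in both samples, and the next, Odr4, differed by 0.37. Around Ptges on chromosome 2, examined after its value was seen, 8 of 10 neighbours passed the filter and 1 reached 2-fold. That neighbour was Prrx2, a homeobox transcription factor, at 5.64 in the knockout and 6.77 in the wild type, the opposite direction to Ptges. Prrx2 passed the level filter of 6.76 narrowly and by its wild-type value alone. Tor1b, on the other side of Ptges, differed by 0.24.

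**Figure D4:**
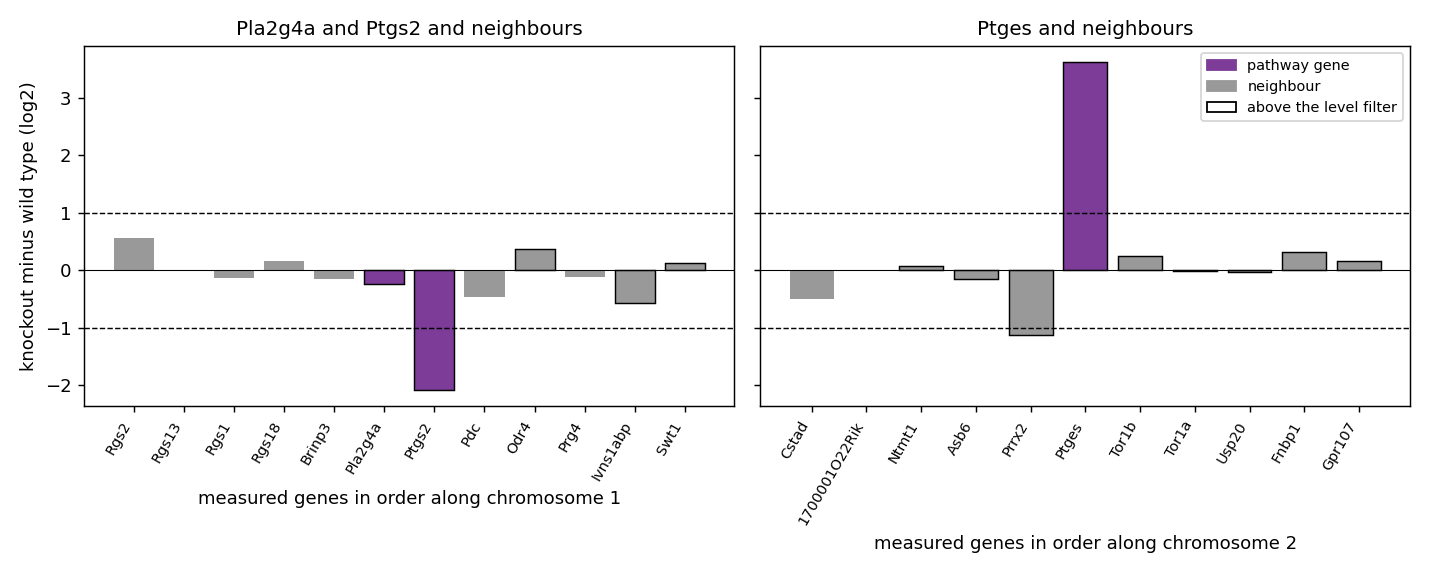
Difference between knockout and wild type on the log2 scale (bars from 0) for Pla2g4a, Ptgs2 and Ptges (purple) and the 5 measured genes on either side (grey), in chromosome order and not to scale, with dashed lines at 2-fold and black outlines on genes above the level filter. The bars of Ptgs2, at -2.08, and Ptges, at 3.62, exceed those of all neighbours shown.

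Ptgs2 and Ptges are also expressed by cells other than epithelium, so markers of such cells were set beside them. In bulk RNA, fewer cells of a type and less RNA per cell cannot be told apart. None of 10 measured leukocyte genes, 7 mast cell genes and 8 endothelial genes passed the level filter, and Ptprc, the pan-leukocyte antigen, was at 3.09 in the knockout and 3.13 in the wild type. The 2 brightest leukocyte genes were Cd68, a lysosomal protein of macrophages, at 6.67 in the knockout and 6.63 in the wild type, and Cd14, a receptor for bacterial lipopolysaccharide, at 6.39 in the knockout and 5.44 in the wild type, a difference of 0.95. The leukocyte list had a median level of 4.04 in the knockout, within a range of 2.79 to 6.67, and 4.18 in the wild type, within a range of 2.89 to 6.63. Of 7 measured tuft cell genes, markers of a chemosensory epithelial cell that makes eicosanoids, 1 passed the filter (Hmx2) and 6 did not. All 7 had lower values in the knockout sample, with a median difference of -0.27. This lean was not particular to tuft cell genes, since 7 of 8 endothelial, 7 of 10 leukocyte and 5 of 7 mast cell genes were also lower. Of the 7 tuft cell genes, 3 were below the background percentile in both samples, among them the defining tuft cell genes Trpm5 and Pou2f3. Il25 and Gfi1b were above that percentile in both, at 5.29 and 5.42 in the knockout and 5.55 and 5.64 in the wild type.

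Fibroblast genes differed in both directions. Of 13 measured 5 passed the filter, of which 2 were at least 2-fold higher (Postn, periostin, and Acta2, smooth muscle actin) and 2 at least 2-fold lower (Vim, vimentin, and Sparc). Postn and Acta2 passed by their knockout value alone, and Vim and Sparc by their wild-type value alone. Levels of the list ran from 3.61 to 11.73 in the knockout, with a median of 5.45, and from 3.73 to 12.15 in the wild type, with a median of 5.16. The defining fibroblast genes Pdgfra, Dcn and Lum were below the background percentile in both samples, and Col1a1 was at 6.09 in the knockout and 6.15 in the wild type. Among ciliated and secretory cell genes 2 of 7 passed the filter. Both passed by their knockout value alone, so their direction was fixed by the filter. They were Foxj1, the regulator of motile cilia, at 8.97 in the knockout and 6.22 in the wild type, and Cyp2f2, a club cell cytochrome, at 9.63 in the knockout and 6.48 in the wild type. The club cell secretory protein gene Scgb1a1 was at 2.30 in the knockout and 2.35 in the wild type, below background. That list's median level was 3.63 in the knockout, within a range of 2.30 to 9.63, and 3.69 in the wild type, within a range of 2.35 to 6.48. The part of these differences in those of Ptges and Ptgs2 was not tested.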

How the data were processed

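Total RNA (250 ng) was labelled for whole-transcript arrays, per the labels' protocols. The deposited log2 values come from RMA and Affymetrix Expression Console, per the submitters' processing notes. For versions, annotation build and filters, the sources used here give nothing. The authors' normalization left the column medians at 6.04 (knockout) and 5.98 (wild type), so a global change would not be seen, and no detection calls came with the values. RMA tends to understate large ratios.

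Of 23332 probe sets, 14996 carried 1 gene symbol in GEO's platform annotation, 1019 several and 7317 none. Where a symbol had several probe sets the one with the highest mean was used. Members and lists were chosen with earlier results of these data known. Genes named from each further list were the 4 with the largest absolute difference above the level filter, or the 2 brightest where none passed; other names were chosen after their values were seen. List symbols were matched by symbol or by a unique RefSeq synonym. The counting script was tested on simulated data. Promoters of all 10 genes were found in the RefSeq table (GRCm38.p6) and searched for 14 motifs on both strands, 1 of them (GCGNGGGCG) added later; the site after the Ptgs2 start was also looked for after the sequence was seen. Protein sequences were not used here. Python 3.11.15, pandas 2.3.3 and numpy 2.4.6 were used. With 1 sample per genotype, the number of arrays limits the precision.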

Additional observations from a re-analysis of the deposited data

How the results depend on the processing

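With 1 array per genotype there was no replicate to leave out. No paired analysis was possible because the labels give no replicate numbers and each genotype has 1 sample. The differences of the 9 genes were recomputed with column medians subtracted, with quantile normalization, with values under the background percentile set to it, and with the mean of all probe sets of a symbol. Of these 36 values 16 could not move, 9 because each gene has a single probe set and 7 because both levels were above the background percentile. The other 20 stayed within 0.18 of those reported. That is the median spread of differences among probe sets of the same gene, over 135 genes with several. Probe sets of a gene read the same RNA, so this spread is no replicate error and holds no variation between mice or cultures. Subtracting column medians moves every difference by the same 0.06, so staying within 0.18 was fixed in advance for that setting. Ptges ran from 3.56 to 3.62 and Ptgs2 from -2.14 to -2.08. Differences near 0 changed sign, namely those of Ptger4 and Ptges2, both down to -0.02, of Hpgd, down to -0.05, and the median of the 9 genes under quantile normalization (-0.0039). At a 1.5-fold threshold 2 genes were counted as higher, Ptgr1 joining Ptges, and 1 as lower. A level filter on the mean of both values, chosen after seeing the data, left 1 gene higher and 1 lower. Without the level filter 8 genes of the further lists were at least 2-fold higher, in place of 5. With the background percentile as a floor, the difference of Gprc5a was -4.43, since its knockout value was below it. Without detection calls, a change in Ptger2 or Hpgd could not be seen at their level.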
